A study of Mus musculus with 4 samples.

Results

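The genes described here are 39 genes of the cell division cycle and DNA replication, taken from a list of names that was drawn up with earlier results of these arrays known, as measured in mouse cerebrum after deletion of the lysolipid transporter gene Mfsd2a from endothelial cells. Of the 39, 38 were matched to a probe set and 35 had a mean signal of at least 50, out of 12426 such genes among 18194 named genes. By role they comprised 10 replication genes (9 of them measured, that is, at or over this minimum), 6 cyclin and cyclin-dependent kinase genes of G1 and the G1/S step (all 6 measured) and 23 genes of G2 and mitosis (20 measured). Ccnb1, the gene of cyclin B1, was not matched to a probe set and its signal is not analysed here. Tyms, Aurkb and Kif20a were matched but fell under the minimum. The mean signal, a geometric mean over the arrays, was 50.7 for Kif11, 54.0 for Bub1 and 54.4 for Ercc6l just inside it, and 46.4 for Aurkb just outside.

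RNA was read on 4 Affymetrix mouse genome arrays, 1 per group, each from equal amounts of cerebrum RNA of 5 to 6 mice. The groups were 2aECKO at postnatal day 9 (Mfsd2a fl/fl with Tie2-cre), its 2afl/fl control at day 9, 2aiECKO at day 8 (Mfsd2a fl/fl with the tamoxifen-inducible Cdh5ERT2-cre) and its control at day 8, 2afl/fl treated with 4-OHT (4-hydroxytamoxifen). All 4 groups carried the floxed allele, and pups of the inducible pair were injected with 4-OHT from the day of birth. Both cre lines are endothelial drivers, of which Tie2-cre is known to act in blood cells as well. For 2aiECKO the source name label says 2aECKO, and the group was taken from the title, which the genotype label matches. With 1 pooled array per group no difference below has a replicate check and no test across samples was possible.

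A dividing cell duplicates its genome once in S phase and separates the copies in mitosis. In G1, D-type cyclins with Cdk4, and then E-type cyclins with Cdk2, release E2F factors from the Rb proteins, which turns on the replication genes. Later in the cycle the genes of G2 and mitosis are turned on through a promoter element called the cell cycle homology region (CHR), often beside CCAAT boxes bound by NF-Y. In the cerebrum of the second postnatal week most neurons have left the cycle. The cells still dividing include glial precursors, astrocytes, microglia and the progenitors of the subventricular zone, among others. In bulk RNA, fewer dividing cells and less RNA per dividing cell cannot be told apart.

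The promoters of replication and mitosis genes differed in which sequence motifs they hold, a property that the choice of the members did not use. The windows were those of RefSeq on GRCm38.p6, from 250 bases before to 50 bases after a transcription start, and 30 members had 31 windows, Ccnb1 and Tyms among them, all searched on both strands. The CCAAT box (CCAAT) was found in 16 of 18 windows of mitosis members and in 9 of 10 of replication members, against 37.2% of 12919 windows of measured genes (those that reached the minimum) and 37.4% of all 32851 windows. The CHR (TTTGAA or TTTAAA) was found in 16 of 18 windows of mitosis members and 3 of 10 of replication members, against 19.0% of windows of measured genes and 27.6% of all windows. An E2F site (TTTGGCGC, TTTCCCGC, TTTGGCGG or TTTCCCGG) was found in 1 of 18 windows of mitosis members, that of Birc5, and in 4 of 10 of replication members, against 5.37% of windows of measured genes and 3.32% of all. The CCAAT box and the CHR stood together in 15 of 18 windows of mitosis members, against 7.14% of windows of measured genes. In 14 of the 18 the CHR lay no further than 60 bases before the start or after it, against 5.47% of windows of measured genes and 1 of 10 windows of replication members, a distance chosen after the positions were seen. A match of letters is not a measured binding site.

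The promoters with the most matches among the measured mitosis and replication members show these arrangements. Top2a (topoisomerase II alpha, which untangles the copied chromosomes; chr11:99024190-99024439, minus strand) had 6 CCAAT boxes and 2 CHR matches, and Ube2c (the ubiquitin-conjugating enzyme of the anaphase-promoting complex; chr2:164769679-164769928, plus strand) had 6 and 1. Mcm5 (chr8:75109259-75109508, plus strand) and Mcm3 (chr1:20820313-20820562, minus strand), both subunits of the replicative helicase, had 3 CCAAT boxes each, with 1 and 2 E2F matches, and Mcm5 also 1 CHR match. The 250 bases before each start are given 5′ to 3′ from GRCm38.p6, with matched letters of the 3 motifs on either strand in capitals. Matches may share bases, as where CCAAT on both strands meets in Ube2c. Both E2F matches and no other match of Mcm3 lie past the start and are not shown, as is 1 CCAAT box of Mcm5.
Top2a: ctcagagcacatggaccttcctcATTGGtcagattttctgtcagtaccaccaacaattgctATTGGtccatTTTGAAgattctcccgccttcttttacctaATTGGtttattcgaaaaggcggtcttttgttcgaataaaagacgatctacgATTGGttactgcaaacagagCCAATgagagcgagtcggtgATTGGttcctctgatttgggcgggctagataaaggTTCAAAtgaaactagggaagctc
Ube2c: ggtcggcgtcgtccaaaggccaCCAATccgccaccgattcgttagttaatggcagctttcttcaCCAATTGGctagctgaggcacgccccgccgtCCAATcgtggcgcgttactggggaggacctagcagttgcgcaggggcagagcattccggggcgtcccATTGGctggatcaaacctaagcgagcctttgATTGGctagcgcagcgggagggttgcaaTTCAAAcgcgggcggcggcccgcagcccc
Mcm5: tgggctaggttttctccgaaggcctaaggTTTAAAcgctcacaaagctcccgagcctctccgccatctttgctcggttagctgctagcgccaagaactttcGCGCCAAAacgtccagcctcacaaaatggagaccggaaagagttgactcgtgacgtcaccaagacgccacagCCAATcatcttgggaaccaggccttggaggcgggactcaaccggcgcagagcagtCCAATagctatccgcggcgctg
Mcm3: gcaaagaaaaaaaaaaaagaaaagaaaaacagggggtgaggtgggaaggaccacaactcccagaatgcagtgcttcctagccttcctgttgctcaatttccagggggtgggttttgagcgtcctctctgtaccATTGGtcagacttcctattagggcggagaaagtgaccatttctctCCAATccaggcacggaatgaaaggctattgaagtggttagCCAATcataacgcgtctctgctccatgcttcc

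**Figure D1:**
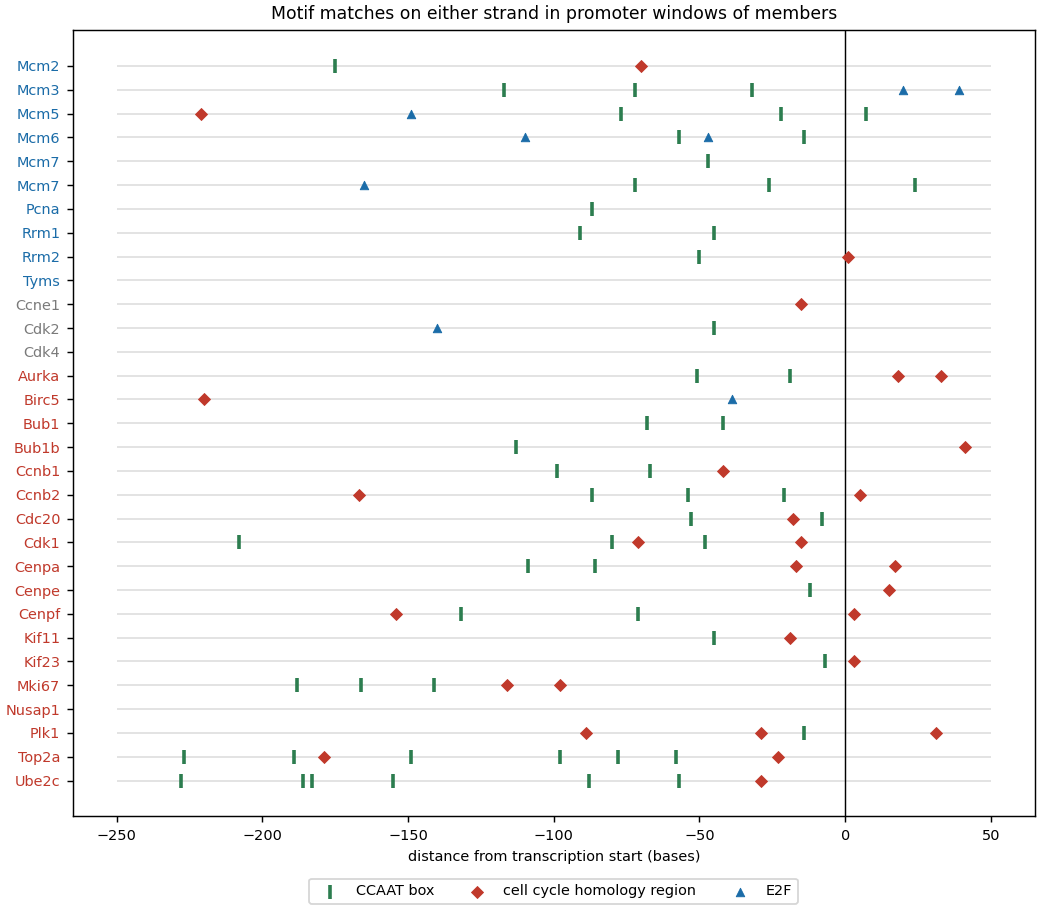
Positions of CCAAT box (green bars), CHR (red diamonds) and E2F (blue triangles) matches on either strand in 31 promoter windows of 30 members, by distance from the transcription start in bases; each grey line is 1 window, and names of replication genes are blue, of G1 and G1/S genes grey and of mitosis genes red. CHR matches gather near the start in 14 of 18 windows of mitosis members, and E2F matches lie in 4 of 10 windows of replication members.

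The arrays themselves showed cell cycle genes close to their control level in both models. Higher here stands for a knockout signal of 50 or more that was 25% or more above the control, a log2 ratio of 0.32, and lower for a control signal of 50 or more with the knockout 20% or more below it. The spread of all log2 ratios, as a robust SD over measured genes, was 0.12 in 2aECKO and 0.10 in 2aiECKO. In 2aECKO 0 of 35 members were higher and 2 were lower, Kif11 and Cenpa, against 2.04% of the 12426 measured genes higher and 1.44% lower. In 2aiECKO 0 of 35 were higher and 1 was lower, Ercc6l, where 1.77% and 0.523% of measured genes were. Ercc6l was already known to be among the lowest genes of 2aiECKO, so nothing is read from that count. Log2 ratios of members ran between -0.37 and 0.24 in 2aECKO and between -0.42 and 0.24 in 2aiECKO. Set against genes of like mean signal, 33 of 35 members in 2aECKO and 34 of 35 in 2aiECKO lay within the range that holds the central 95% of those genes, and those outside were the same 3 genes.

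The medians of the replication genes and the mitosis genes lay on opposite sides of 0 in 2aECKO and on the same side in 2aiECKO. The median log2 ratio in 2aECKO was 0.11 for the 9 replication members and -0.03 for the 20 mitosis members, and in 2aiECKO it was 0.09 and 0.08. Over all measured genes the median was -0.01 in 2aECKO and 0.00 in 2aiECKO. In 2aECKO 7 of 9 replication members but 4 of 20 mitosis members had a log2 ratio above 0, against 46.3% of measured genes. In 2aiECKO these counts were 6 of 9 and 14 of 20, against 46.4% of measured genes. The 6 G1 and G1/S members had medians of -0.01 and 0.07, with 3 and 4 above 0. The medians depended in part on the choice of probe set. Over the mean of all bright probe sets of a gene (mean signal 50 or more) the replication median in 2aECKO was 0.04. In 2aiECKO the mitosis median was 0.01 with less specific probe sets left out, and the G1 median turned to -0.03. The order of the replication and mitosis medians in 2aiECKO was not stable, with 0.05 for replication and 0.08 for mitosis when no minimum signal was set.

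**Figure D2:**
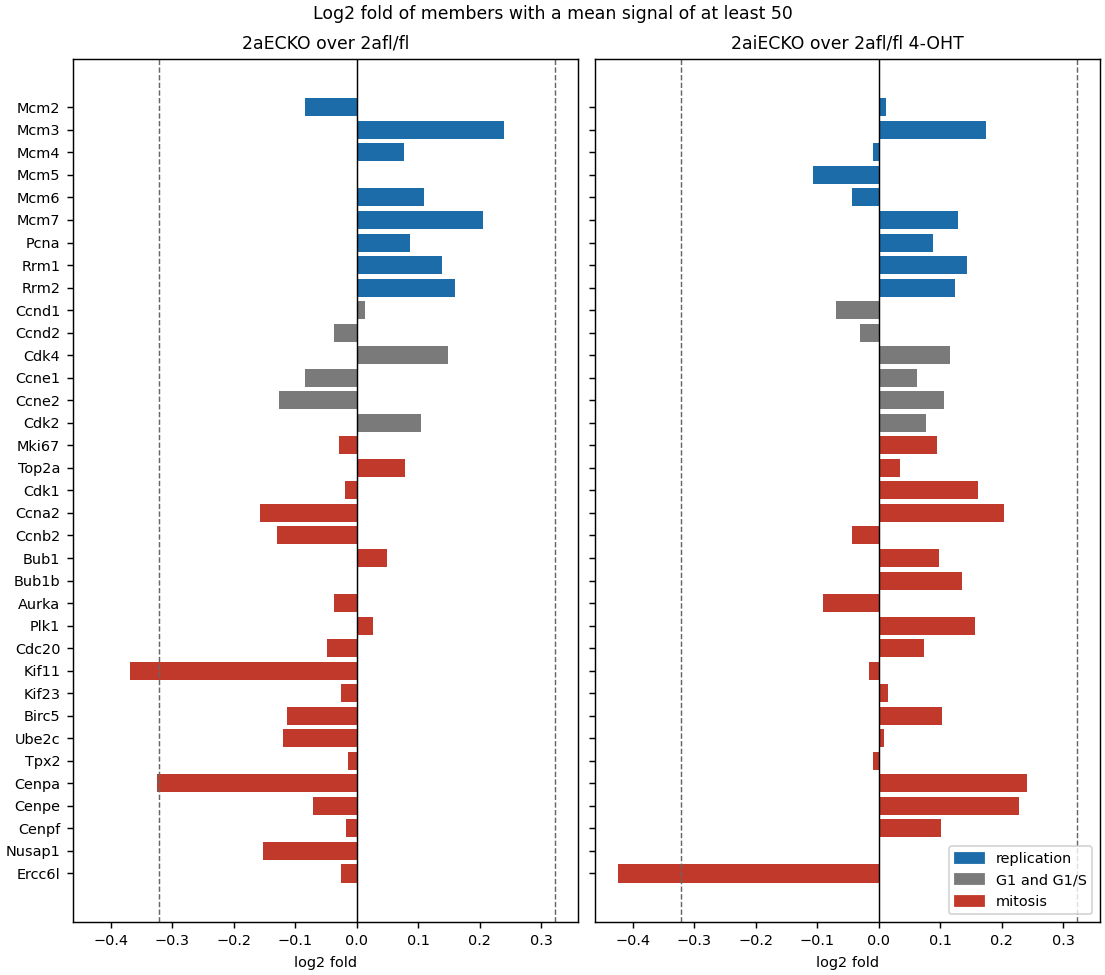
Log2 ratio of the 35 measured members (1 bar each, 1 pooled array per group) in 2aECKO over 2afl/fl (left) and in 2aiECKO over 2afl/fl 4-OHT (right), with replication genes in blue, G1 and G1/S genes in grey and mitosis genes in red; dashed lines mark 25% above and 20% below the control. Only Kif11 and Cenpa on the left and Ercc6l on the right pass the dashed lines, all of them downwards.

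Among the replication genes, the helicase genes Mcm2 to Mcm7 encode the ring of 6 subunits that is loaded at origins and unwinds DNA. Mcm7 had a signal of 570 in 2aECKO and 495 in 2afl/fl, a log2 ratio of 0.21, and of 487 in 2aiECKO and 446 in 2afl/fl 4-OHT, a log2 ratio of 0.13. Mcm3 had 103 in 2aECKO and 87.6 in 2afl/fl, a log2 ratio of 0.24, and 93.8 in 2aiECKO and 83.1 in 2afl/fl 4-OHT, a log2 ratio of 0.17. These were the 2 helicase genes with the largest folds in each model at their brightest probe set. For Mcm6 the values were 0.11 in 2aECKO and -0.04 in 2aiECKO, and for Mcm4 0.08 and -0.01. Mcm5 had 0.00 and -0.11, with equal signals of 173.8 in 2aECKO and 2afl/fl, and Mcm2 had -0.08 and 0.01. The 6 subunits of 1 complex thus spanned folds on both sides of 0.

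Pcna, the sliding clamp that holds DNA polymerase on its template, had a signal of 2111 in 2aECKO and 1988 in 2afl/fl, and of 2067 in 2aiECKO and 1943 in 2afl/fl 4-OHT. Its log2 ratio was 0.09 in both models. Rrm1 and Rrm2 encode the large and small subunits of ribonucleotide reductase, which supplies deoxynucleotides. Rrm1 had 343 in 2aECKO and 312 in 2afl/fl, and 307 in 2aiECKO and 278 in 2afl/fl 4-OHT, a log2 ratio of 0.14 in each. Rrm2 had 379 in 2aECKO and 339 in 2afl/fl, and 339 in 2aiECKO and 311 in 2afl/fl 4-OHT, with log2 ratios of 0.16 and 0.12. These 3 genes were above their controls in both models, by less than 25%. Tyms, thymidylate synthase, had signals of 9.8 to 12.9 on the 4 arrays and no fold is read from it.

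Of the G1 and G1/S genes, Cdk4 had a signal of 692 in 2aECKO and 625 in 2afl/fl, and of 740 in 2aiECKO and 683 in 2afl/fl 4-OHT, with log2 ratios of 0.15 and 0.12. Its partners Ccnd1 and Ccnd2, the D-type cyclins of most neural progenitors, had log2 ratios of 0.01 and -0.04 in 2aECKO, and in 2aiECKO -0.07 and -0.03. The cyclins thus lay closer to their controls than the kinase at the brightest probe sets, and a probe set of Ccnd1 nearly as bright gave -0.04 in 2aECKO and 0.09 in 2aiECKO. Cdk2 had log2 ratios of 0.10 in 2aECKO and 0.08 in 2aiECKO. Ccne1 and Ccne2, the E-type cyclins that bind Cdk2, had -0.08 and -0.13 in 2aECKO and 0.06 and 0.11 in 2aiECKO.

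Of the genes that start and run mitosis, Cdk1, the mitotic kinase, had a signal of 193 in 2aECKO and 196 in 2afl/fl, and of 152 in 2aiECKO and 136 in 2afl/fl 4-OHT, with log2 ratios of -0.02 and 0.16. Ccna2, cyclin A2, had 213 in 2aECKO and 237 in 2afl/fl, and 186 in 2aiECKO and 162 in 2afl/fl 4-OHT, with log2 ratios of -0.16 and 0.20. The models thus went opposite ways at Ccna2, and its second bright probe set gave -0.17 and 0.11. Ccnb2, cyclin B2, had log2 ratios of -0.13 and -0.04. Plk1, a kinase of mitotic entry and spindle assembly, had 0.03 in 2aECKO and 0.16 in 2aiECKO, and Aurka, the kinase of the spindle poles, had -0.04 and -0.09. Tpx2, which activates Aurka on spindle microtubules, had -0.01 in both.

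Mki67, the proliferation antigen Ki-67 that coats mitotic chromosomes, had a signal of 220 in 2aECKO and 224 in 2afl/fl, and of 169 in 2aiECKO and 159 in 2afl/fl 4-OHT. Its log2 ratio was -0.03 in 2aECKO and 0.09 in 2aiECKO. Top2a had 199 in 2aECKO and 188 in 2afl/fl, and 160 in 2aiECKO and 156 in 2afl/fl 4-OHT, with log2 ratios of 0.08 and 0.04. Neither of these widely used markers of dividing cells passed the limits in either model. Birc5, survivin, a subunit of the chromosomal passenger complex, had log2 ratios of -0.11 and 0.10. Nusap1, which bundles spindle microtubules, had -0.15 in 2aECKO and 0.00 in 2aiECKO, with equal signals of 93.81 in 2aiECKO and 2afl/fl 4-OHT. Aurkb, the kinase of the passenger complex, had signals of 56.0 in 2aECKO, 60.2 in 2afl/fl, 39.5 in 2aiECKO and 34.9 in 2afl/fl 4-OHT, too low on average to be counted.

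Of the centromere genes, Cenpa, the histone H3 variant that marks centromeres, had a signal of 112 in 2aECKO and 141 in 2afl/fl, and of 110 in 2aiECKO and 93.5 in 2afl/fl 4-OHT. Its log2 ratio was -0.32 in 2aECKO, with 1.40% of measured genes at or below it, and 0.24 in 2aiECKO. The 2 models went opposite ways at this gene, and 2aECKO only just passed the limit, with a fold of 0.799. A dimmer probe set of Cenpa, with signals of 39.9 in 2aECKO and 51.4 in 2afl/fl, gave -0.37, and in the other model it read 22.2 in both 2aiECKO and 2afl/fl 4-OHT, a log2 ratio of 0.00. The dimmest, with a mean signal of 7.06, gave -0.16 in 2aECKO and -0.14 in 2aiECKO, so the opposite direction in 2aiECKO rests on the brightest probe set. Cenpe, the kinesin of the kinetochore, had log2 ratios of -0.07 in 2aECKO and 0.23 in 2aiECKO, and Cenpf, a large kinetochore protein, had -0.02 and 0.10. The checkpoint genes Bub1 and Bub1b, whose proteins delay anaphase until chromosomes are attached, had 0.05 and 0.00 in 2aECKO and 0.10 and 0.14 in 2aiECKO. Cdc20 and Ube2c, which act with the anaphase-promoting complex, had -0.05 and -0.12 in 2aECKO and 0.07 and 0.01 in 2aiECKO.

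Kif11, the kinesin that pushes spindle poles apart, had a signal of 57.3 in 2aECKO and 74.0 in 2afl/fl, a log2 ratio of -0.37 with 0.748% of measured genes at or below it. In the other model it had 39.2 in 2aiECKO and 39.7 in 2afl/fl 4-OHT, a log2 ratio of -0.02. The fold in 2aECKO rests on 1 probe set: the others of this gene, with mean signals of 49.0 and 32.3, gave -0.06 and 0.11. Kif23, a kinesin of the central spindle, had -0.03 and 0.01. Kif20a, another kinesin of cytokinesis, had signals of 30.5 in 2aECKO, 38.7 in 2afl/fl, 21.7 in 2aiECKO and 24.1 in 2afl/fl 4-OHT, all under 50.

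Ercc6l, also called PICH, is a translocase on the ultrafine DNA bridges of anaphase, and it was among the genes with low folds in earlier results of these arrays, so its place in the list is not independent of its value. It had a signal of 41.0 in 2aiECKO and 55.0 in 2afl/fl 4-OHT, a log2 ratio of -0.42 with 0.113% of measured genes at or below it. In the other model it had 61.7 in 2aECKO and 62.8 in 2afl/fl, a log2 ratio of -0.03. The gene was thus under the minimum signal in 2aiECKO itself. Its other probe set had signals of 8.97 in 2aiECKO and 9.26 in 2afl/fl 4-OHT, too low to check the fold. Over the mean of both probe sets the log2 ratio was -0.24, which is short of a fold of 0.8.

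**Figure D3:**
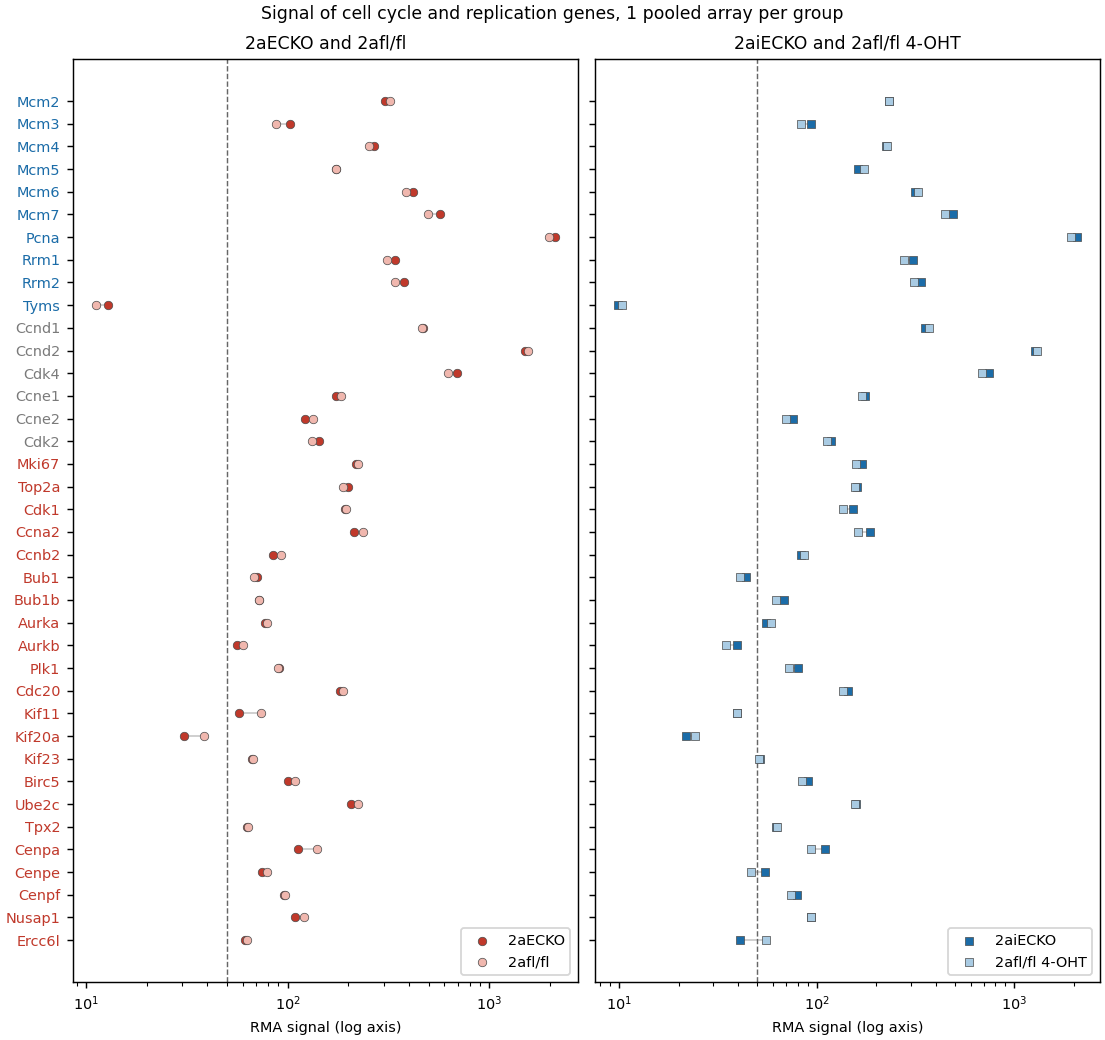
Signal of the 38 matched members on the log axis, with 2aECKO (dark red circles) and 2afl/fl (pale red circles) on the left and 2aiECKO (dark blue squares) and 2afl/fl 4-OHT (pale blue squares) on the right; each point is 1 pooled array, and the dashed line marks a signal of 50. For most genes the knockout and control points touch or overlap, and the widest gaps are those of Kif11, Kif20a and Cenpa on the left and of Ercc6l on the right.

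How far a value depends on the probe set can be read from genes that have several. For 15 members 43 probe sets had a mean signal of at least 50, and within a gene their log2 ratios spanned a median of 0.15 in 2aECKO and 0.14 in 2aiECKO. The folds of 1 gene shared a sign at all of these probe sets in 8 of the 15 genes in 2aECKO and in 5 of 15 in 2aiECKO. Ccnd2, with 7 such probe sets, spanned the most, with values from -0.41 to 0.04 in 2aECKO and from -0.18 to 0.22 in 2aiECKO. Mcm3 spanned -0.11 to 0.24 in 2aECKO and -0.07 to 0.27 in 2aiECKO over 4 probe sets, so its brightest probe set was at the upper end in 2aECKO. Mcm7 had log2 ratios of 0.13 to 0.29 in 2aECKO over 4 probe sets and of 0.00 to 0.14 in 2aiECKO. Rrm1 had 0.14 and 0.39 in 2aECKO, the second of which is more than 25% above the control, and 0.14 and 0.10 in 2aiECKO. Rrm2 had 0.16, -0.04 and -0.05 in 2aECKO and 0.12, 0.11 and 0.17 in 2aiECKO. Cdk4 stayed above 0 at all 3 of its probe sets in both models, from 0.08 to 0.15 in 2aECKO and from 0.07 to 0.18 in 2aiECKO.

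**Figure D4:**
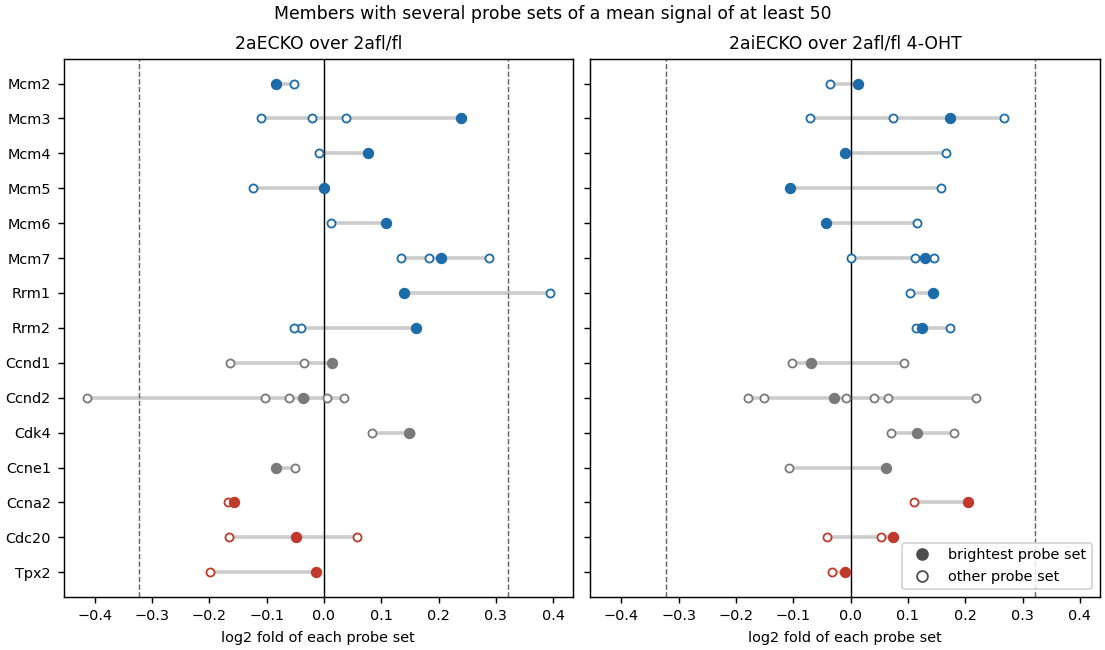
Log2 ratio at each probe set with a mean signal of at least 50 for the 15 members with several, in 2aECKO over 2afl/fl (left) and 2aiECKO over 2afl/fl 4-OHT (right); filled points are the brightest probe set, open points the others, grey lines join those of 1 gene and dashed lines mark 25% above and 20% below the control. The lines of 7 genes on the left and 10 on the right touch or cross 0.

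Beyond the members, fork genes had a median above 0 in both models, and spindle genes a median below 0 in 2aECKO and close to 0 in 2aiECKO. Of 47 other genes of origin licensing and the replication fork, 41 were measured, with a median log2 ratio of 0.06 in 2aECKO and 0.05 in 2aiECKO. Of the 41, 27 and 30 lay above 0, against 46.3% and 46.4% of all measured genes. In 2aECKO 2 of them were higher and 0 lower, against 2.04% and 1.44% of all measured genes. In 2aiECKO 0 were higher and 0 lower, against 1.77% and 0.523%. Those higher were Lig1, the ligase that joins Okazaki fragments, and Rfc3, a subunit of the clamp loader. Lig1 had a signal of 344 in 2aECKO and 265 in 2afl/fl, a log2 ratio of 0.38, and a log2 ratio of 0.08 in 2aiECKO. Rfc3 had 158 in 2aECKO and 123 in 2afl/fl, a log2 ratio of 0.36, and 151 in 2aiECKO and 124 in 2afl/fl 4-OHT, a log2 ratio of 0.28. At the ends of the list were Mcm8, of a helicase in recombination, at -0.23 in 2aECKO, Cdc45, of the active helicase, at -0.17 in 2aiECKO, and Gins3, another helicase subunit, at 0.30 in 2aiECKO.

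Of 65 other spindle and kinetochore genes, 42 were measured, with a median of -0.08 in 2aECKO and 0.02 in 2aiECKO. Of the 42, 12 and 23 lay above 0, against 46.3% and 46.4% of all measured genes. In 2aECKO 1 was lower and 0 higher, against 1.44% and 2.04% of all measured genes. In 2aiECKO 0 passed in either direction. The lower gene was Nek2, a kinase that separates centrosomes, with a signal of 112 in 2aECKO and 148 in 2afl/fl, a log2 ratio of -0.40, and a log2 ratio of 0.04 in 2aiECKO. The highest were Zwint, a kinetochore gene, at 0.24 in 2aECKO and Zwilch, of the checkpoint, at 0.23 in 2aiECKO, and the lowest in 2aiECKO was Mastl, a kinase of mitotic entry, at -0.25. So the mitosis side had a median under 0 in 2aECKO in the wider list too, with no gene but Nek2 past the fold.

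Of 16 other genes of nucleotide supply, 14 were measured, with medians of 0.00 in both models. In 2aECKO 1 was lower, against 1.44% of all measured genes. Tk1, the thymidine kinase of S phase, was the 1 gene lower in 2aECKO, with a signal of 67.8 in 2aECKO and 85.0 in 2afl/fl, a log2 ratio of -0.33, and had 57.5 in 2aiECKO and 50.02 in 2afl/fl 4-OHT, a log2 ratio of 0.20. Shmt1, of one-carbon metabolism, had 0.18 in 2aECKO, Nme4, a nucleoside diphosphate kinase, 0.21 in 2aiECKO, and Dctd, dCMP deaminase, -0.16 in 2aiECKO. Tk1 thus lay on opposite sides of its control in the models.

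The condensin, cohesin and chromatin genes (19 of 24 measured) had medians of 0.06 in 2aECKO and 0.08 in 2aiECKO, with 0 past the fold. They ran from -0.07 for the condensin gene Smc4 to 0.24 for Tmpo in 2aECKO, and from -0.13 for Ncapg2 to 0.17 for Tmpo in 2aiECKO. Cell cycle transcription factors and Rb family genes (16 of 22 measured) had medians of -0.03 and 0.01, also with 0 past the fold. The ends were E2f1 at -0.13 and E2f6 at 0.25 in 2aECKO, and Mycn at -0.20 and Rbl1 at 0.26 in 2aiECKO. Of CDK inhibitors, antiproliferative genes and phosphatases, with a few other regulators (28 of 32 measured), the medians were 0.00 and 0.03. In 2aECKO 1 was higher, against 2.04% of all measured genes. In this list Cdkn2b, the Cdk4 inhibitor p15, was higher in 2aECKO, with a signal of 90.1 in 2aECKO and 70.3 in 2afl/fl, a log2 ratio of 0.36, and had a log2 ratio of 0.16 in 2aiECKO. The lowest was Wee1 at -0.23 in 2aECKO and Fbxo5 at -0.26 in 2aiECKO, and the highest in 2aiECKO was Gadd45a at 0.25.

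**Figure D5:**
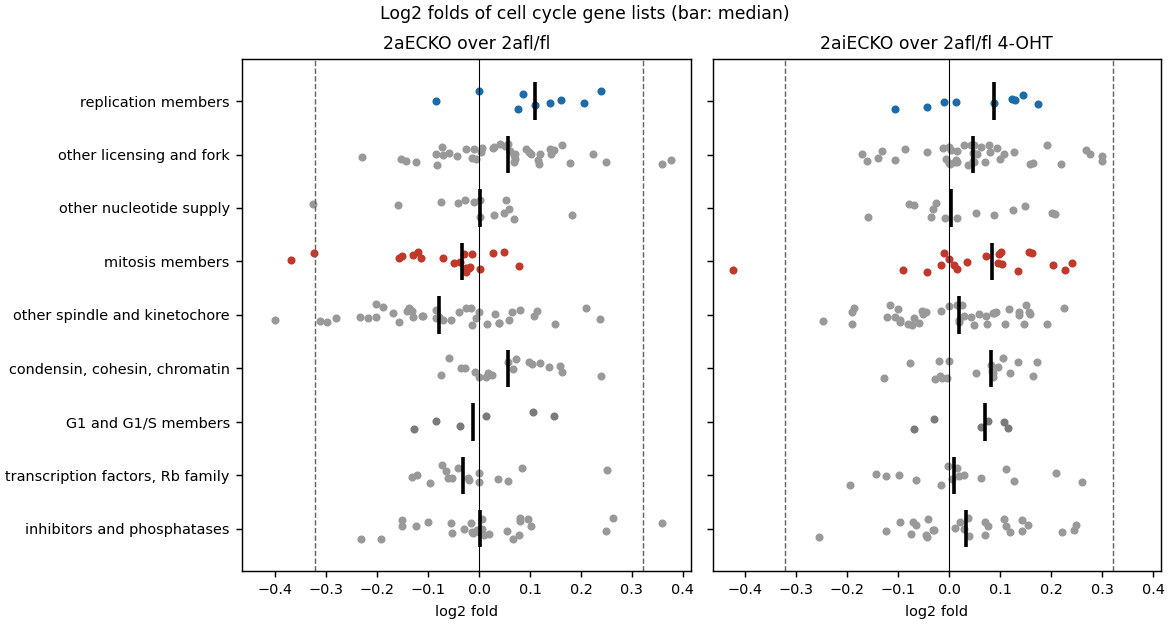
Log2 ratios of 9 cell cycle gene lists in 2aECKO over 2afl/fl (left) and 2aiECKO over 2afl/fl 4-OHT (right); each point is 1 measured gene from 1 pooled array per group (members in blue, red and dark grey, other lists in light grey, scattered vertically for sight), black bars are list medians and dashed lines mark 25% above and 20% below the control. On the left the medians of both replication lists lie above 0 and those of both mitosis lists below 0, and on the right all 4 lie above 0.

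Between the models, whose comparisons share no array, 11 of 35 members had log2 ratios above 0 in both, 6 below 0 in both, and 13 below 0 in 2aECKO and above 0 in 2aiECKO. Over all measured genes these shares were 28.2%, 32.7% and 17.3%. Pearson's r over the 35 genes was 0.058 and Spearman's rho 0.14, against 0.43 and 0.40 over all 12426 measured genes. Over the 9 replication members r was 0.72 and rho 0.78, and over the 20 mitosis members r was -0.11 and rho 0.053. All of these were taken at the brightest probe set of each gene, and values at other probe sets are not given here. The mitosis members include Ercc6l, whose place in the list is not independent of its value. The coefficients describe genes on 4 arrays, and genes are not independent replicates.

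As deposited the pairs were on different scales, with median signals of 75.5 in 2aECKO and 74.1 in 2afl/fl, against 49.2 in 2aiECKO and 48.7 in 2afl/fl 4-OHT. After quantile normalization over all 4 arrays the 4-OHT control at day 8 could be set beside the 2afl/fl control at day 9. The median log2 difference, 4-OHT control minus 2afl/fl, was 0.20 for the replication members (8 of 9 above 0), 0.14 for the mitosis members (11 of 20 above 0) and 0.06 over all measured genes (7454 of 12426 above 0). Tpx2 differed most, at 0.59, with normalized signals of 76.9 in 2afl/fl 4-OHT and 51.1 in 2afl/fl, and Mcm3 was at 0.46. Ccne2 was at -0.41 and Kif11 at -0.28. The controls differed in age, 4-OHT and pool at once, which cannot be told apart. At 24 of 35 members (68.6%) the controls differed by more than either knockout did from its own control. Over all measured genes this share was 63.2%, close to that of the members.

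Markers of cells that divide, and of other cells, were read on the same arrays. Of neural stem and progenitor markers (13 of 14 measured) 4 were higher in 2aECKO, Sox2, Vim, Pax6 and Prom1, and 1 in 2aiECKO, Prom1. Over all measured genes 2.04% and 1.77% were higher. The medians of these markers were 0.17 and 0.09, with 11 and 9 of 13 above 0. Hes1 was lowest in both models, at -0.13 and -0.16, and Nes lay at 0.00 and -0.01. The summed signal of these markers was 17820 in 2aECKO and 16190 in 2afl/fl, and 14480 in 2aiECKO and 13270 in 2afl/fl 4-OHT. The largest part was Fabp7, with 11400 in 2aECKO and 10800 in 2afl/fl, and 9688 in 2aiECKO and 8913 in 2afl/fl 4-OHT. Oligodendrocyte precursor markers (7 of 9 measured) had medians of 0.00 and 0.01. Sums over all 8 matched to a probe set were 8875 in 2aECKO and 8774 in 2afl/fl, and 6603 in 2aiECKO and 6633 in 2afl/fl 4-OHT. Microglial markers (10 of 12 measured) had medians of 0.13 and 0.50. Sums over all 11 matched to a probe set were 4731 in 2aECKO and 4442 in 2afl/fl, and 5757 in 2aiECKO and 3974 in 2afl/fl 4-OHT. Of the 10 measured, 8 were higher in 2aiECKO, against 1.77% of all measured genes. In 2aECKO 1 microglial marker was higher and 2 were lower, Tmem119 at -0.46 and P2ry12 at -0.36, while Itgam was under 50 on all 4 arrays. The part of these cells in the folds of the members was not tested.

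Astrocyte markers (10 of 10 measured) had medians of 0.23 in 2aECKO and 0.30 in 2aiECKO, and endothelial markers (11 of 11) 0.04 and -0.13. Of the markers of cerebellum and its granule cell precursors, which divide strongly at this age, 6 of 14 were measured, with medians of 0.08 and 0.09, while Atoh1, Gabra6, En1, En2, Cbln3, Pcp2 and Barhl2 were under a signal of 50 on all 4 arrays. Neuronal markers (10 of 10 measured), with medians of -0.09 and -0.05, were present in all pools. The single Mfsd2a probe set had a signal of 410 in 2aECKO and 423 in 2afl/fl, and of 299 in 2aiECKO and 369 in 2afl/fl 4-OHT. Where it lies relative to the deleted exons was not established, so it does not check the genotype.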

How the data were processed

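Cerebrum RNA was pooled per group and hybridized to Affymetrix mouse genome arrays, 1 per group. The deposited values are intensity values, not logged, that came from the authors' RMA run, which adjusts background and equalizes quantiles; the methods name the affy package, and the submitters' processing notes name Partek 6.6. Of 45101 probe sets, 34958 had 1 gene symbol in the platform annotation, 932 had several and 9211 are unnamed here. Symbols were checked against RefSeq gene identifiers (GRCm38.p6). Each gene was read at its brightest probe set (by mean log2 over the arrays), and log2 differences were formed within each pair of arrays. The limits for higher genes follow the methods, and the limit for lower genes mirrors them. The members and lists were chosen with earlier results of these data known. Named were all members, genes of other lists past the fold or at the ends of a list, and Mfsd2a. The number of arrays limits the precision, and no p-value was computed. Alternatives were other choices of probe sets, centring, loess (fraction 0.3), quantile normalization over 4 arrays, the other pair's control, and other minimum signals and folds; the mean over bright probe sets was added after the data were seen. Scripts were tested on simulated data. Promoter windows came from RefSeq. Python 3.11.15, numpy 2.4.6, pandas 2.3.3, scipy 1.17.1, statsmodels 0.14.6 and matplotlib 3.10.9 were used.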

Additional observations from a re-analysis of the deposited data

Results flagged for a closer look

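The models went opposite ways, 1 array pair each, at 4 members whose log2 ratios were at least 0.1 from 0 on opposite sides, and the difference was not tested. It was -0.57 (2aECKO minus 2aiECKO) for Cenpa, -0.36 for Ccna2, -0.24 for Ccne2 and -0.22 for Birc5. The share of all measured genes that meet this rule is not given here, so nothing is read from the count of 4. By any amount, 13 of 35 members and 17.3% of all measured genes lay below 0 in 2aECKO and above 0 in 2aiECKO. The reverse held for 3 of 35 members and 17.1% of all measured genes. The medians of 2 roles also lay on opposite sides of 0, with a difference of -0.12 for the mitosis members and -0.0814 for the G1 and G1/S members. The G1 and G1/S medians lay on the same side of 0 over the mean of all probe sets, with less specific probe sets left out, and at a minimum signal of 100, where they were 0.014 in 2aECKO and 0.0625 in 2aiECKO. Age, cre line, 4-OHT and pool differ between the pairs at once and cannot be told apart.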

How the results depend on the processing

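With each pair's own control, the replication medians were above 0 in both models under every alternative run, the mitosis median was below 0 in 2aECKO and above 0 in 2aiECKO, and 0 members were higher except at a fold of 1.1. Medians that moved by over 0.05 were as follows. Over the mean of all probe sets, which left 21 members over the minimum, the replication and G1 medians in 2aECKO were 0.0575 and -0.0671, the G1 median in 2aiECKO was -0.00614, and 0 members were lower in either model. With less specific probe sets left out, the replication median in 2aECKO was 0.058, the G1 and mitosis medians in 2aiECKO were -0.0296 and 0.0145, and 1 member was lower in 2aECKO. Over the mean of bright probe sets, an alternative added after the data were seen, the replication and G1 medians in 2aECKO were 0.0369 and -0.0643. At a minimum of 100 the mitosis median in 2aECKO was -0.0841, with 1 member lower there and 0 in 2aiECKO. With median centring, and with the loess trend removed, 1 member was lower in 2aECKO, since Cenpa left the count in both. At a fold of 1.1, 5 were higher and 4 lower in 2aECKO, and 7 higher and 1 lower in 2aiECKO. The shares of all measured genes past a fold of 1.1 are not given here, so nothing is read from these counts. At 1.5, 0 were lower in either.

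With the other pair's control, which brings the difference between the controls in by construction, the replication, G1 and mitosis medians in 2aECKO were -0.0506, -0.109 and -0.205, with 6 members lower. In 2aiECKO the replication and G1 medians were 0.312 and 0.153, with 10 members higher, and Ercc6l reversed to 0.00924. Shares of all measured genes past the fold with the other pair's control are not given here. Nothing is therefore read from the counts of 6 and 10. After joint quantile normalization the controls alone differed by this fold at many genes. Of 12426 measured genes, 1820 were higher and 987 lower in the control of 2aiECKO than in that of 2aECKO. No paired analysis was possible because each group has 1 array. Many mitosis members lay close to the minimum signal, where folds of all genes spread more widely.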
